A study of Mus musculus with 12 samples.

Results

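The genes described here are the histone genes of the mouse, across 3 genotypes of bone marrow LSK cells. They were chosen by symbol: names beginning Hist1h, Hist2h, Hist3h, Hist4h, H2af, H1f or H3f, with at least 10 expected counts in at least 4 of the 12 libraries. Of 91 genes with such names 77 met this minimum, out of 55487 genes listed. The 64 with Hist symbols are called replication-dependent below, and encode H1 (5 genes), H2A (18), H2B (18), H3 (11) and H4 (12). The other 13 carry the symbols of variant histones, and 10 of them are described singly. By annotation 72 members were protein-coding, 1 was the antisense gene H3f3aos and the other 4 were pseudogenes.

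Histones are the proteins around which DNA is wound. An octamer of H2A, H2B, H3 and H4 forms the core of a nucleosome and H1 binds the DNA between cores. Most core and linker histones come from replication-dependent genes, which are active in S phase, when new DNA has to be packed. Their mRNAs have no intron and normally end in a conserved stem-loop in place of a poly(A) tail, a structure bound by Slbp. Most variant histones are made from ordinary polyadenylated mRNAs through the whole cell cycle and are put into chromatin by chaperones of their own. In stem and progenitor cells of the marrow, which alternate between rest and division, the first group is commonly read as a sign of S phase.

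The libraries came from sorted LSK cells, the lineage-negative, Sca1+, c-Kit+ fraction in which haematopoietic stem cells and multipotent progenitors are found, with 4 libraries each labelled Yy1+/+ (wild type), Yy1-/- and Yy1-/- Smc3+/-. Yy1 encodes the zinc finger transcription factor Yin Yang 1, and Smc3 a core subunit of cohesin. The sources used here name no Cre driver, age, sex or batch, and do not say whether each library came from its own animal, so p-values measure the spread between these libraries, part of which may be technical. The kit, SMART-Seq v4, primes cDNA on poly(A), so the values of replication-dependent genes are those of transcripts that could be primed in this way. It does not mark the strand, so reads of a gene and of an antisense or overlapping neighbour cannot be told apart.

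Summed expected counts ranged from 38671354 to 69086104 per library, and Yy1+/+ replicate 2 was the deepest. Yy1 stood at 33.9 to 41.3 CPM (expected counts per library size, the size adjusted by TMM) in the Yy1+/+ libraries and at 0.407 to 12.2 CPM in the 8 others. The highest residual values among these, 5.01, 12.2 and 4.45 CPM, were in Yy1-/- replicates 3 and 4 and Yy1-/- Smc3+/- replicate 3, called the residual-read libraries below. Smc3 was not lower in the libraries labelled Smc3+/-, so that genotype is named as labelled. It stood at 254 to 344 CPM in them, against 200 to 306 CPM in Yy1-/- and 160 to 214 CPM in Yy1+/+. The 8 markers of the LSK fraction had reads in every library, with a summed level of 2980 to 3270 CPM in Yy1+/+, 1880 to 2170 CPM in Yy1-/- and 1890 to 2190 CPM in Yy1-/- Smc3+/-. The 8 monocyte and macrophage markers also had reads in every library, with 484 to 1190, 569 to 5980 and 663 to 1270 CPM in the same order, and none was at 0. Of the 8 LSK markers 1 rose and 5 fell in Yy1-/- and 1 rose and 4 fell in Yy1-/- Smc3+/- against Yy1+/+, where 16.3% and 13.1% of all 16649 genes tested rose and 18.8% and 16.7% fell (edgeR, adjusted p under 0.05). Of the 8 monocyte and macrophage markers 6 and 5 rose and 0 fell. Of 7 T and NK markers 4 rose and 0 fell in each, although their summed level was 152 to 318 CPM in Yy1+/+, 50.3 to 212 CPM in Yy1-/- and 76.5 to 262 CPM in Yy1-/- Smc3+/-. Of 9 neutrophil markers 1 rose and 0 fell in each. Of 9 erythroid markers 1 and 2 fell, of 6 megakaryocyte markers 2 and 2, of 8 immediate early genes 3 and 0, and of 4 plasma cell markers 1 and 1, and none of these rose. Of 6 B cell markers tested 0 and 2 rose and 0 fell. The part of these markers in the histone values was not tested. In bulk RNA a change in the share of a cell type and a change in RNA per cell cannot be told apart.

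The stem-loops of 8 members are shown because the annotated gene models differ in what follows them, and the results are split by this below. A 16-base motif, made of GG, any 2 bases, CTT, any base, T, any base, AG, any base and GCC, was searched on the sense strand of the GENCODE M21 transcripts (build GRCm38). It was found in 42 of 64 replication-dependent members, in 1 of 13 variants (H2afx), and in 62 of 21901 protein-coding genes (0.283%). A stem-loop beyond the end of an annotated transcript would not be found, so no match does not show that a gene lacks it. The match is in capitals, with 5 bases on each side in lower case, 5′ to 3′ on the sense strand.
Hist1h2bj: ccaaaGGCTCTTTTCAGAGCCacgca
Hist1h2bm: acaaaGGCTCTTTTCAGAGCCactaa
Hist1h4n: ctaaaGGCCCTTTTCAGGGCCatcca
Hist1h4i: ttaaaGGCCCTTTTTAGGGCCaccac
Hist1h1c: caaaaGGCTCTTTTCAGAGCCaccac
Hist3h2a: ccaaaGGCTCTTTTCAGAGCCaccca
Hist3h2ba: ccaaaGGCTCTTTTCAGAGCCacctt
H2afx: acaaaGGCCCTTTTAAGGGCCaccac
These lie at chr13:22043633-22043658 (plus strand), chr13:21722501-21722526 (plus), chr13:21831793-21831818 (minus), chr13:22040961-22040986 (minus), chr13:23739507-23739532 (plus), chr11:58955167-58955192 (plus), chr11:58949344-58949369 (plus) and chr9:44335235-44335260 (plus). All are in the only exon of 1-exon transcripts. After the stem-loop the annotated transcript runs on for 23 bases in Hist1h2bj, 46 in Hist1h2bm and 31 in Hist1h4n, against 330 in Hist1h4i, 840 in Hist1h1c, 1643 in Hist3h2a, 169 in Hist3h2ba and 822 in H2afx. The same 16 letters, those of Hist1h2bj, stood in 25 members of the classes H1, H2A, H2B and H3. The form of Hist1h4n stood in 7 members, all of class H4.

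The start regions of 3 genes are shown, of different kinds among those called in both comparisons: a shared H2A-H2B start (Hist1h2bj), a linker gene (Hist1h1a) and the H2B gene that was lower (Hist3h2ba). The sequences are the 180 bases before the RefSeq start on the gene's own strand (GRCm38.p6), at chr13:22043018-22043197, chr13:23763488-23763667 and chr11:58948731-58948910, all on the plus strand. Capitals mark CCAAT and TATAAA, on either strand.
Hist1h2bj: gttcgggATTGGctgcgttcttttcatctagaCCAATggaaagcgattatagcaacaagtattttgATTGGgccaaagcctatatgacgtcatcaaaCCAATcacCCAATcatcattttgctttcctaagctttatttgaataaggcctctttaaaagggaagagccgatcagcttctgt
Hist1h1a: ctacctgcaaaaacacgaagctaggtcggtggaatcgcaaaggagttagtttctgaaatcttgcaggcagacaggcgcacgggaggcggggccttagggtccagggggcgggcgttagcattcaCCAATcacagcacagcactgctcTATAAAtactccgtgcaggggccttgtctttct
Hist3h2ba: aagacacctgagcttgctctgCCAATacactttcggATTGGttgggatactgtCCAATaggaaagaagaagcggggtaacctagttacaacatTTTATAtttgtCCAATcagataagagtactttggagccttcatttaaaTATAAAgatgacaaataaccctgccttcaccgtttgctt
The Hist1h2bj window held 5 CCAAT matches and no TATAAA, and the start of Hist1h2ag lies 270 bases away on the other strand. Hist1h1a held 1 CCAAT match, beginning 56 bases before the start, and 1 TATAAA at 33 bases. Hist3h2ba, which was lower, held 4 CCAAT and 2 TATAAA matches. RefSeq windows of 250 bases before to 50 after the start were matched for 67 of 77 members. CCAAT stood in 49 of 57 replication-dependent windows (86%), against 37.4% of all 32851 windows, and in 3 of 11 H4 windows. TATAAA stood in 56.1% of them against 13.6% of all, and the octamer ATGCAAA in 21.1% against 4.63%. AANATGG, a core of the YY1 site, stood in 19.3% of replication-dependent windows and 16.1% of all. All motifs were searched on both strands, and a match is a description of letters only.

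In Yy1-/- against Yy1+/+, more replication-dependent histone genes rose than fell, and each of the 5 protein classes had genes that rose. Of 64 replication-dependent genes 43 rose and 3 fell (edgeR quasi-likelihood test, Benjamini-Hochberg adjusted p under 0.05), where 16.3% of all 16649 genes tested were called higher and 18.8% lower. Their median log2 fold change was 1.43, against 0.01 over all genes. By class 4 of 5 H1, 9 of 18 H2A, 12 of 18 H2B, 9 of 11 H3 and 9 of 12 H4 genes rose. The members that fell were Hist2h2aa2 (H2A), Hist2h2be and Hist3h2ba (both H2B). In 37 replication-dependent genes every Yy1-/- library was above every Yy1+/+ library, and in 2 every one was below, against 13.4% and 17.5% of all genes. Of the 13 variants 3 rose and 2 fell, with a median of 0.01. Among all 77 members 46 rose and 5 fell.

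The number of histone genes that rose was lower without the residual-read libraries. Without Yy1-/- replicates 3 and 4 and Yy1-/- Smc3+/- replicate 3, 20 members rose in Yy1-/- in place of 46, and 18 of 64 replication-dependent genes, while 12.5% of all genes tested were called higher and only 2 Yy1-/- libraries remained. The replication-dependent median was then 1.23 and 54 of 64 log2 fold changes were above 0, as many as with all libraries. The Yy1-/- libraries kept, replicates 1 and 2, also held more of several monocyte and macrophage markers than replicates 3 and 4. Lyz2 stood at 4250 and 2810 CPM against 177 and 348, and Csf1r at 495 and 534 CPM against 43.2 and 73.9. Ly6c2 and Ccr2 overlapped between these libraries. In Yy1-/- a part of residual Yy1 and a part of these markers cannot be told apart. Leaving out 1 library at a time gave between 34 and 43 members that rose. The number that fell was 8 without Yy1+/+ replicate 3 and 9 with log2 TPM, in place of 5.

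In Yy1-/- Smc3+/- against Yy1+/+, a comparison that shares the Yy1+/+ libraries with the first, 36 of 64 replication-dependent genes rose and 2 fell, where 13.1% of all genes were called higher and 16.7% lower. Their median was 1.35, against 0.02 over all genes. The classes gave 3 of 5 H1, 7 of 18 H2A, 12 of 18 H2B, 8 of 11 H3 and 6 of 12 H4 genes that rose. Those that fell were Hist1h1c and Hist3h2ba. In 39 genes the libraries lay wholly above those of Yy1+/+ and in 1 wholly below, against 14.7% and 17.6% of all genes. Of the 13 variants 3 rose and 2 fell, and of all 77 members 39 rose and 4 fell.

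**Figure D1:**
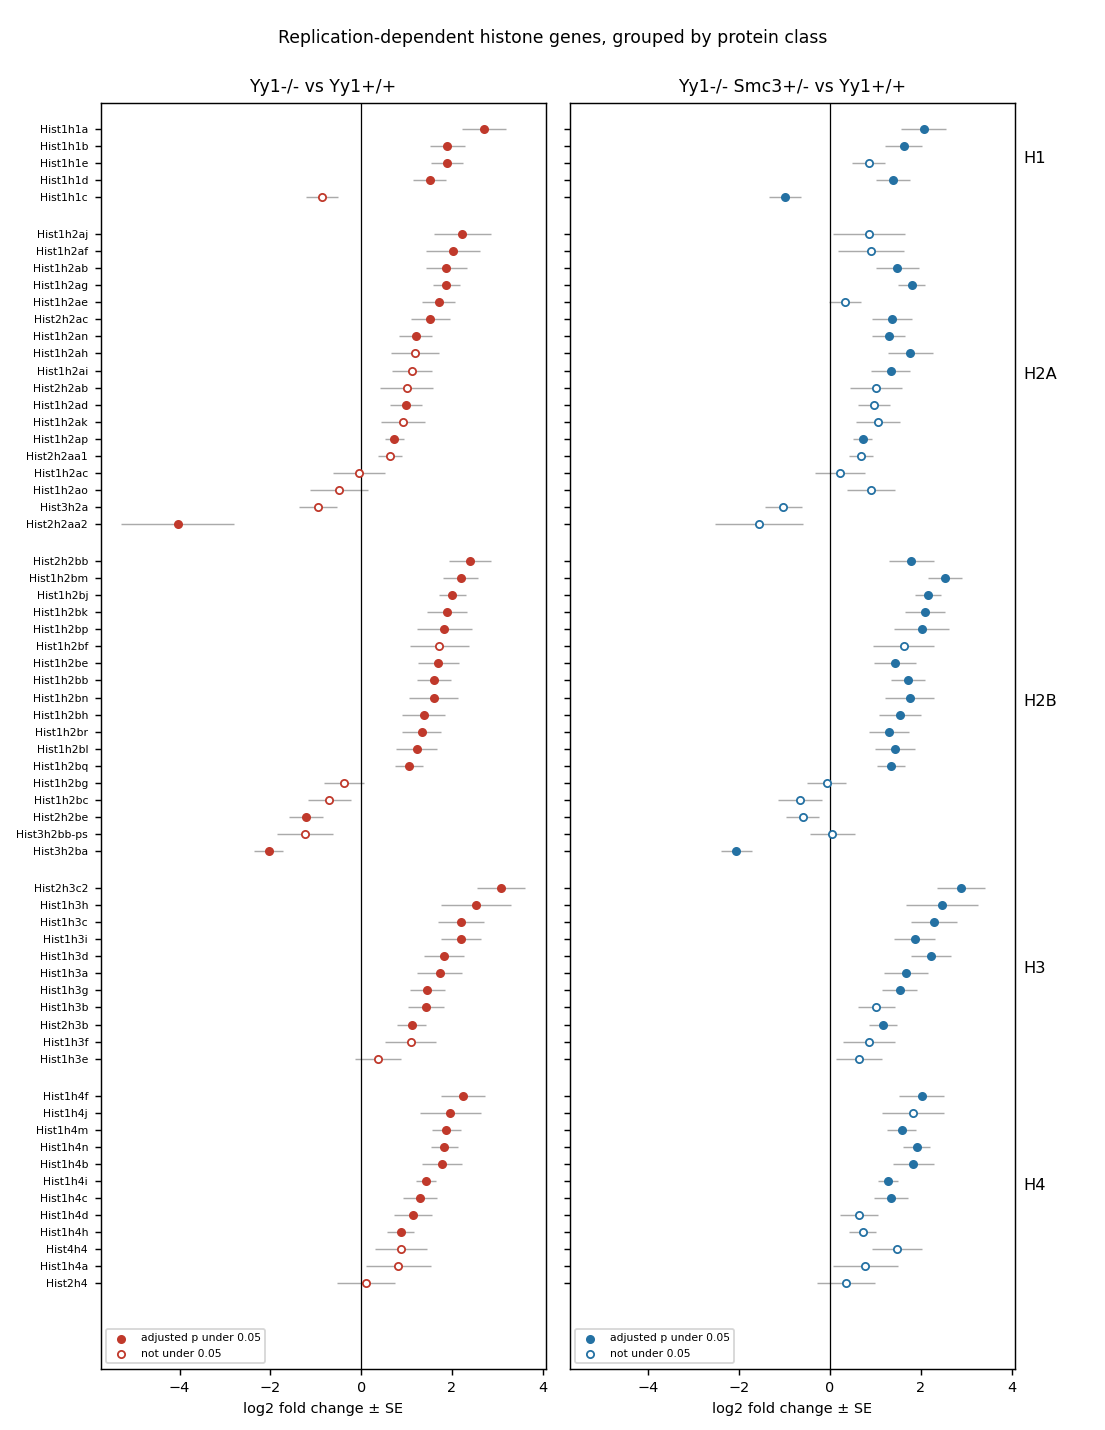
Log2 fold change with its standard error (x axis) of the 64 replication-dependent genes (rows, grouped by protein class), in Yy1-/- (left) and Yy1-/- Smc3+/- (right) against the same Yy1+/+ libraries. Filled points have an edgeR adjusted p under 0.05; 43 filled points lie above 0 and 3 below on the left, 36 and 2 on the right.

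Between Yy1-/- Smc3+/- and Yy1-/- no histone gene passed the test. edgeR called 0 of 77 members, and 6 of 16649 genes in all (0.036%). At an unadjusted p under 0.05 there were 7 members: H1fx, H2afy2, H3f3a, Hist1h1e, Hist1h2ae, Hist1h2aj and Hist1h2ao. This was 9.09% of the members, where 6.46% of all genes had such a p. DESeq2 called 1 member lower, Hist1h2ae, and limma on log2 TPM called 0. The median log2 fold change of the 64 replication-dependent genes was 0.00, with 32 above 0 and 32 below. A p that misses the threshold does not show that the levels were equal.

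Per unit of length 1 gene gave most of the replication-dependent signal. In Yy1+/+ the mean TPM (transcript abundance corrected for length) was 5680 for Hist1h2ap, an H2A gene, 161 for Hist1h2ae and 91.6 for Hist2h2aa1, and below these for the other 61 genes. Hist1h2ap held 56.3% to 73.7% of the summed CPM of all replication-dependent genes in a library. RSEM divides reads between near-identical genes, and 93.1% of the 50-base windows of Hist1h2ap also stand in other genes, so its level may hold reads of its copies. Without Hist1h2ap the summed level of the other 63 genes was 400 ± 97.7 CPM (SD, n = 4) in Yy1+/+, 613 ± 111 CPM in Yy1-/- and 503 ± 36.7 CPM in Yy1-/- Smc3+/-. By class, the summed H4 level was 34.2 ± 11.3, 84 ± 14.6 and 74.4 ± 12.9 CPM in the same order, and the summed H3 level 27.3 ± 11.6, 76.4 ± 32.4 and 87 ± 19.9 CPM. H4 sums did not overlap between Yy1+/+ (at most 46.9 CPM) and the other libraries (at least 64.1 CPM). The H2B sum did not differ in this way although 12 of 18 H2B genes rose, at 90.2 ± 44.8, 78.8 ± 14.4 and 87.2 ± 17.8 CPM. Yy1+/+ replicate 2 held 156 CPM of it, of which 111 CPM was Hist1h2bc.

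**Figure D2:**
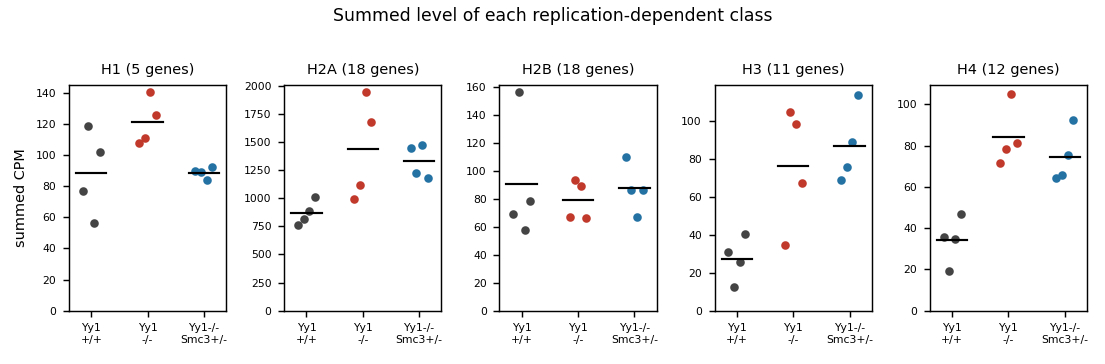
Summed CPM (y axis, from 0) of the replication-dependent genes of each class, 1 point per library and a line at the mean of each genotype. H4 sums of Yy1+/+ lie at or below 46.9 and those of the others at or above 64.1; the H2B panel has 1 Yy1+/+ library at 156.

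Linker histone H1 compacts the nucleosome array. Hist1h1a, which shares no 50-base window with another gene, stood at 0.808, 0.379, 1.1 and 1.78 CPM in the 4 Yy1+/+ libraries, 6.58, 2.97, 10.2 and 5.68 CPM in Yy1-/- and 3.68, 3.98, 2.82 and 5.79 CPM in Yy1-/- Smc3+/-. All 8 mutant libraries lay above the 4 of Yy1+/+. On the log2 scale it rose by 2.70 ± 0.48 (SE) in Yy1-/- (edgeR adjusted p = 0.00105) and 2.06 ± 0.50 in Yy1-/- Smc3+/- (edgeR adjusted p = 0.00805). On log2 TPM the first value was 2.04. Hist1h1b, also without a shared window, stood at 7.44, 1.69, 8.81 and 10.1 CPM in Yy1+/+, 21.3, 25.9, 35.7 and 20.2 CPM in Yy1-/- and 20.2, 24.9, 15.6 and 23.8 CPM in Yy1-/- Smc3+/-. Here too the groups did not overlap, and Hist1h1b rose by 1.90 ± 0.39 (edgeR adjusted p = 0.00262) and 1.62 ± 0.40 (edgeR adjusted p = 0.00827).

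Hist1h1e was called in 1 of the 2 comparisons with Yy1+/+. Its levels were 9.06, 6.32, 18.8 and 11.7 CPM in Yy1+/+, 32.5, 23.6, 46.1 and 66.6 CPM in Yy1-/-, and 16.3, 17.2, 26.9 and 21.7 CPM in Yy1-/- Smc3+/-. Yy1-/- lay wholly above Yy1+/+, whereas Yy1-/- Smc3+/- overlapped it because of Yy1+/+ replicate 3. The log2 fold change was 1.89 ± 0.36 in Yy1-/- (edgeR adjusted p = 0.00162), 1.26 without the 3 residual-read libraries, and 0.85 ± 0.36 in Yy1-/- Smc3+/- (edgeR adjusted p = 0.0933; 0.0289 without Yy1+/+ replicate 3). The difference between the mutants was -1.04 with an interval of -1.80 to -0.28 and an edgeR adjusted p of 0.756. Exons of Hist1h2be (496 bases) and Gm11398 (320 bases) overlap Hist1h1e on the same strand, and 32% of its windows stand in other genes. Hist1h2be rose in both comparisons with Yy1+/+ (1.70 and 1.43), and its part in the reads of Hist1h1e was not tested. Hist1h1c, of the highest level per length in Yy1+/+ among the 5 replication-dependent H1 genes (69.4 TPM), was the only one of them with log2 fold changes below 0. It stood at 56, 109, 23.6 and 72.6 CPM in Yy1+/+, 36.6, 48.7, 34.4 and 24.5 CPM in Yy1-/-, and 40.9, 31.9, 30.7 and 28.6 CPM in Yy1-/- Smc3+/-. The lowest library of all was in Yy1+/+ and the 2 groups overlapped in both comparisons. Its log2 fold change was -0.86 ± 0.35 in Yy1-/- (edgeR adjusted p = 0.0734) and -0.99 ± 0.35 in Yy1-/- Smc3+/- (edgeR adjusted p = 0.0499). The second call was lost in 11 of 17 alternatives, 7 of them the removal of 1 library, and stood at -0.62 without Yy1+/+ replicate 2 (edgeR adjusted p = 0.169). Without Yy1+/+ replicate 3 the first became -1.14 (edgeR adjusted p = 0.00643).

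H2A genes lie mostly beside H2B genes, with starts facing away from each other. Hist1h2ap stood at 625, 631, 779 and 809 CPM in Yy1+/+, 824, 872, 1710 and 1330 CPM in Yy1-/- and 1280, 1070, 1320 and 1020 CPM in Yy1-/- Smc3+/-. All 8 mutant libraries were above Yy1+/+, 2 of Yy1-/- only narrowly. Hist1h2ap rose by 0.73 ± 0.21 (edgeR adjusted p = 0.017) and 0.72 ± 0.21 (edgeR adjusted p = 0.022). The first call was lost without Yy1+/+ replicate 1 (0.67, edgeR adjusted p = 0.051), without Yy1-/- replicate 3 (0.47, 0.0685) and without the 3 residual-read libraries (0.22, 0.342). The second was lost without Yy1+/+ replicate 1 or 2 or Yy1-/- Smc3+/- replicate 1 or 3, at 0.66 to 0.67 with edgeR adjusted p from 0.0506 to 0.063, and both were lost with log2 TPM. Added to its near-identical neighbour Hist1h2ao, it gave a summed level of 711 ± 96.8, 1180 ± 417 and 1170 ± 152 CPM (SD, n = 4) in the 3 genotypes, which was not tested.

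Hist1h2ae, the second replication-dependent gene by level per length, was called in 1 of the comparisons with Yy1+/+. It stood at 36, 26.5, 49.4 and 66.9 CPM in Yy1+/+, 89.1, 90.7, 132 and 273 CPM in Yy1-/- and 66.1, 45, 60 and 53.6 CPM in Yy1-/- Smc3+/-. Every Yy1-/- library was above all 8 others, and Yy1-/- replicate 4 was highest by far. It rose in Yy1-/- (1.71 ± 0.36, edgeR adjusted p = 0.0028; 0.98 without the 3 residual-read libraries, edgeR adjusted p = 0.0371) and had a log2 fold change of 0.33 ± 0.35 in Yy1-/- Smc3+/- (edgeR adjusted p = 0.512). Between the mutants it was -1.38 with an interval of -2.15 to -0.61, an unadjusted p of 0.00186 and an edgeR adjusted p of 0.595. DESeq2 gave an adjusted p of 0.0285 for the same difference.

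The pair Hist1h2ag and Hist1h2bj, whose shared start region is printed above, both rose in both comparisons. Hist1h2ag stood at 2.4, 1.45, 2.67 and 2.14 CPM in Yy1+/+, 7.78, 6.08, 9.56 and 8.21 CPM in Yy1-/- and 6.95, 5.43, 10.3 and 7.35 CPM in Yy1-/- Smc3+/-. Hist1h2bj stood at 1.41, 1.28, 1.83 and 1.67 CPM, 5.49, 5.46, 8.39 and 5.42 CPM, and 7.23, 5.36, 8.54 and 6.41 CPM in the same order. For both genes the lowest mutant library lay well above the highest of Yy1+/+. Hist1h2ag rose by 1.88 ± 0.30 (edgeR adjusted p = 0.00045) and 1.80 ± 0.30 (edgeR adjusted p = 0.000689), and Hist1h2bj by 2.01 ± 0.29 (edgeR adjusted p = 0.000253) and 2.16 ± 0.29 (edgeR adjusted p = 0.000175). Of 14 pairs of members on opposite strands with starts under 1000 bases apart, others differed within the pair. Hist2h2ac rose (1.52 and 1.36) while Hist2h2be, 239 bases away, fell in Yy1-/- (-1.21). Hist1h2ae rose in Yy1-/- while Hist1h2bg, 176 bases away, had log2 fold changes of -0.37 and -0.07 and was not called.

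Other H2A genes with high levels were not called in the same way. Hist1h2ac stood at 13.5, 11, 8.14 and 23.7 CPM in Yy1+/+, 1.68, 25.7, 18.2 and 8.19 CPM in Yy1-/- and 10.8, 22.9, 11 and 21 CPM in Yy1-/- Smc3+/-. The groups overlapped throughout, and the log2 fold changes of -0.05 ± 0.57 and 0.22 ± 0.56 were not called. Hist3h2a, whose stem-loop is followed by the longest tail of those shown above, stood at 58.7, 92.7, 30.1 and 73.2 CPM in Yy1+/+, 27, 66.5, 22.7 and 15.4 CPM in Yy1-/- and 34.7, 34.8, 21.7 and 33.3 CPM in Yy1-/- Smc3+/-. Most mutant libraries were below most of Yy1+/+, with overlap at Yy1-/- replicate 2 and Yy1+/+ replicate 3. Its log2 fold changes were -0.95 ± 0.41 (edgeR adjusted p = 0.0896; -1.55 and 0.00526 without Yy1-/- replicate 2) and -1.03 ± 0.41 (edgeR adjusted p = 0.0762). Without Yy1+/+ replicate 3 both were called, at -1.18 (edgeR adjusted p = 0.0395) and -1.27 (edgeR adjusted p = 0.0346). Exons of Trim17 overlap 708 bases of Hist3h2a on the same strand, and Gm44313 overlaps 138 bases on the opposite strand. The part of these genes in the reads of Hist3h2a was not tested.

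Hist2h2aa1 and Hist2h2aa2 are copies whose 50-base windows all stand, on either strand, in other genes. Among these is an annotated gene on the opposite strand over the full length, Gm20633 for Hist2h2aa1 (586 bases) and Gm20632 for Hist2h2aa2 (528 bases). Reads therefore cannot be assigned with certainty between the copies, or between each copy and these genes. Hist2h2aa1 stood at 15, 30.3, 11.5 and 18.5 CPM in Yy1+/+, 24.7, 33.8, 33.7 and 24.5 CPM in Yy1-/- and 32.3, 33.9, 25.2 and 29.3 CPM in Yy1-/- Smc3+/-. Only Yy1+/+ replicate 2 reached the mutant levels, and the log2 fold changes of 0.63 ± 0.26 and 0.68 ± 0.26 (edgeR adjusted p = 0.0758 and 0.0653) became 0.96 and 1.01 without it (edgeR adjusted p = 0.00438 and 0.00396). Hist2h2aa2 stood at 6.52, 16.7, 0.129 and 6.97 CPM in Yy1+/+, 0, 1.67, 0 and 0 CPM in Yy1-/- and 1.3, 0, 7.27 and 2.09 CPM in Yy1-/- Smc3+/-. It fell in Yy1-/- by the test (-4.04 ± 1.25, edgeR adjusted p = 0.0227), although Yy1+/+ replicate 3 lay below Yy1-/- replicate 2. That call was lost without Yy1+/+ replicate 2 (-3.27, edgeR adjusted p = 0.0683), without Yy1-/- replicate 1, 3 or 4 (-3.66 to -3.70, edgeR adjusted p 0.0541 to 0.0584) and without the 3 residual-read libraries (-3.10, edgeR adjusted p = 0.113), and with DESeq2 (adjusted p = 0.144). Without Yy1-/- replicate 2 all other Yy1-/- libraries were at 0, and no fold is given. The summed level of the pair was 26.4 ± 14.9, 29.6 ± 5.83 and 32.9 ± 1.14 CPM (SD, n = 4) in Yy1+/+, Yy1-/- and Yy1-/- Smc3+/-. Reads given to the overlapping genes are not part of this sum.

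The H2B class held genes that rose and genes that fell. Hist1h2bm stood at 0.751, 0.474, 0.646 and 0.879 CPM in Yy1+/+, 2.52, 2.05, 4.62 and 3.22 CPM in Yy1-/- and 3.09, 3.7, 4.4 and 4.54 CPM in Yy1-/- Smc3+/-. Hist1h2bk stood at 0.639, 1.63, 1.1 and 0.947 CPM, 1.93, 3.21, 6.85 and 4.25 CPM, and 3.88, 3.81, 4.42 and 6.63 CPM. In both genes all mutant libraries lay above all of Yy1+/+. Hist1h2bm rose by 2.19 ± 0.39 (edgeR adjusted p = 0.001) and 2.53 ± 0.38 (edgeR adjusted p = 0.000364). Hist1h2bk rose by 1.89 ± 0.44 (edgeR adjusted p = 0.00537; 1.22 and 0.0912 without the 3 residual-read libraries) and 2.09 ± 0.44 (edgeR adjusted p = 0.00344).

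Hist3h2ba, in the small Hist3h cluster of chromosome 11, stood at 4.7, 6.76, 3.85 and 5.88 CPM in Yy1+/+, 1.14, 1.63, 1.12 and 1.22 CPM in Yy1-/- and 1.63, 0.936, 0.75 and 1.71 CPM in Yy1-/- Smc3+/-. The 4 Yy1+/+ libraries lay well above the other 8, with no overlap. Its log2 fold changes were -2.04 ± 0.33 (edgeR adjusted p = 0.0006) and -2.07 ± 0.34 (edgeR adjusted p = 0.00066), and this fall kept its call in all 17 alternatives of each comparison. Hist2h2be, which shares no 50-base window with another gene, stood at 10.6, 10, 12.2 and 12.7 CPM in Yy1+/+, 1.58, 6.78, 5.52 and 5.56 CPM in Yy1-/- and 6.31, 11.2, 4.09 and 8.32 CPM in Yy1-/- Smc3+/-. Yy1-/- lay wholly below Yy1+/+, and Yy1-/- Smc3+/- overlapped it by its replicate 2. Hist2h2be fell in Yy1-/- (-1.21 ± 0.37, edgeR adjusted p = 0.0223; -1.15 and 0.0526 without Yy1+/+ replicate 4), and its log2 fold change in Yy1-/- Smc3+/- was -0.60 ± 0.36 (edgeR adjusted p = 0.231). Hist1h2bc, at 33.2, 111, 28.3 and 33.6 CPM in Yy1+/+, 38.6, 42.8, 25.9 and 20.3 CPM in Yy1-/- and 62.5, 30.6, 18.5 and 19.2 CPM in Yy1-/- Smc3+/-, was set apart by Yy1+/+ replicate 2. Its log2 fold changes of -0.70 and -0.66 (not called) became 0.0056 and 0.047 without that library.

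Genes of H3 and H4, the pair that forms the centre of the nucleosome, had no member that fell in either comparison. Hist1h3d, the H3 gene of highest CPM, stood at 12.2, 5.8, 9.45 and 13.9 CPM in Yy1+/+, 10.5, 57.3, 49.8 and 28.6 CPM in Yy1-/- and 34.6, 41.4, 47.4 and 68 CPM in Yy1-/- Smc3+/-. Yy1-/- replicate 1 stayed within the Yy1+/+ range and the other 7 mutant libraries lay above it. Hist1h3d rose by 1.83 ± 0.44 (edgeR adjusted p = 0.00594) and 2.22 ± 0.44 (edgeR adjusted p = 0.0024), and the first call was lost with log2 TPM (limma adjusted p = 0.0533). Hist2h3c2 stood at 0.545, 0, 1.21 and 0.992 CPM in Yy1+/+, 3.64, 4.32, 7.54 and 6.3 CPM in Yy1-/- and 3.93, 4.44, 6 and 4.67 CPM in Yy1-/- Smc3+/-. No mutant library came near the Yy1+/+ range. Its log2 fold changes, 3.09 ± 0.53 (edgeR adjusted p = 0.000765) and 2.89 ± 0.53 (edgeR adjusted p = 0.00153), were the highest of all 77 members in both comparisons, and 2.12 and 2.05 with log2 TPM. Of the 50-base windows of Hist2h3c2, 63.5% also stand in other genes. Its near copy Hist2h3c1 missed the count minimum, with 10 counts in only 2 libraries and at most 86.14 counts in a library. How far the folds of Hist2h3c2 depend on the division of reads between copies was not tested.

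Hist1h4i stood at 8.02, 8.48, 8.98 and 12.5 CPM in Yy1+/+, 23.3, 26.1, 32.7 and 19.3 CPM in Yy1-/- and 22.1, 18.7, 23.9 and 27 CPM in Yy1-/- Smc3+/-, and rose by 1.42 ± 0.22 (edgeR adjusted p = 0.000347) and 1.28 ± 0.22 (edgeR adjusted p = 0.000815). Hist1h4m stood at 2.72, 1.5, 3.55 and 2.59 CPM, 8.29, 7.85, 12.4 and 8.79 CPM, and 6.9, 7.65, 5.2 and 10.9 CPM, and rose by 1.87 ± 0.32 and 1.58 ± 0.32 (edgeR adjusted p = 0.000809 and 0.00288). Hist1h4n stood at 1.67, 1.58, 2.37 and 2.75 CPM, 7.17, 6.4, 8.33 and 7.52 CPM, and 6.24, 6.27, 7.22 and 11.4 CPM, and rose by 1.83 ± 0.30 and 1.91 ± 0.30 (edgeR adjusted p = 0.000555 and 0.00046). In these 3 H4 genes no mutant library overlapped Yy1+/+. Hist1h4m and Hist1h4n share 89.8% and 85.6% of their windows with other genes, whereas Hist1h4i shares 28.9%. Hist1h4d was less certain, at 14.9, 2.56, 12.8 and 17.9 CPM in Yy1+/+, 22.2, 18.2, 32.4 and 33.7 CPM in Yy1-/- and 13.5, 18.5, 23.7 and 18.9 CPM in Yy1-/- Smc3+/-. The lowest Yy1-/- library was only just above Yy1+/+ replicate 4. Its rise in Yy1-/- (1.15 ± 0.42, edgeR adjusted p = 0.0486) was lost in 12 of 17 alternatives, among them the removal of Yy1+/+ replicate 1 or 3 or Yy1-/- replicate 1, 3 or 4 (0.99 to 1.28, edgeR adjusted p 0.0648 to 0.115). In Yy1-/- Smc3+/- its log2 fold change was 0.64 ± 0.42 and was not called.

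**Figure D3:**
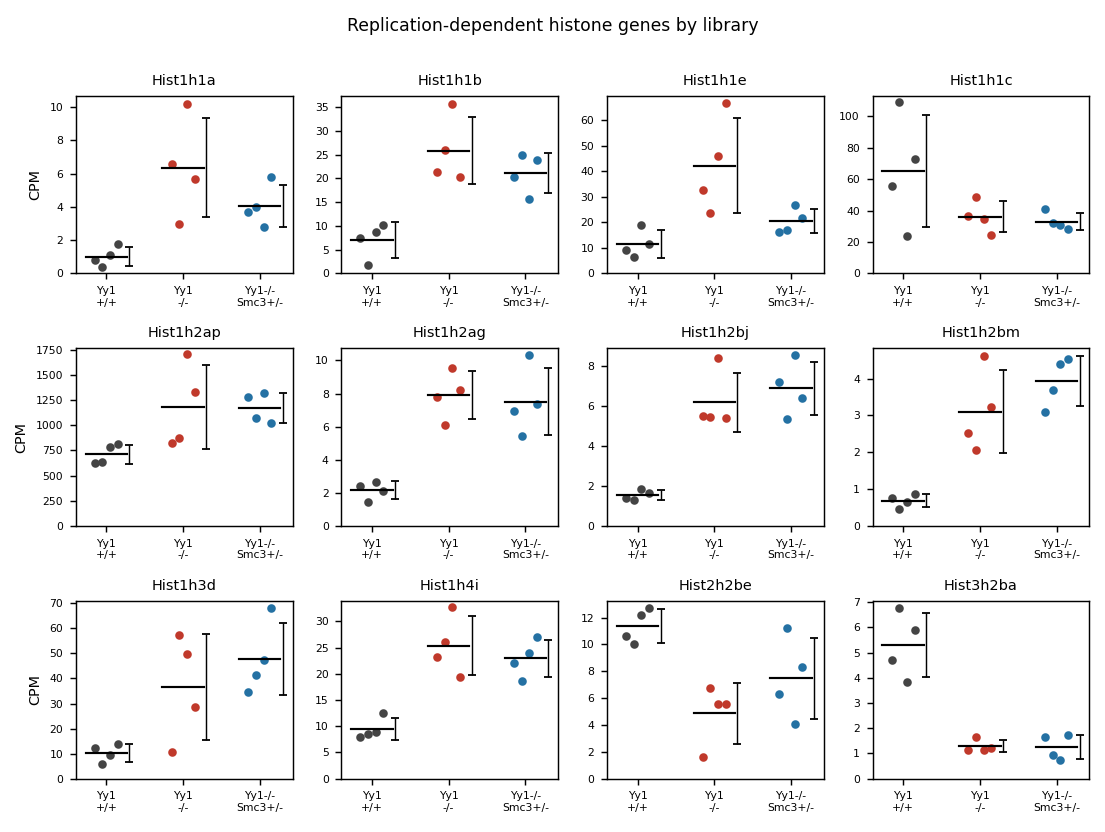
CPM (y axis, from 0) of 12 replication-dependent genes, 1 point per library, a line at the mean and a bar of 1 SD (n = 4) for each genotype. Hist1h2bj, Hist1h2ag, Hist1h2bm and Hist1h4i show no overlap between Yy1+/+ and the other libraries, Hist3h2ba none in the other direction, and Hist1h1c overlaps.

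The annotated end of the gene model divided the replication-dependent genes as a description. In 22 genes each annotated transcript with the motif ended at most 100 bases after the stem-loop, a limit chosen after the values were seen. Of these 18 rose and 1 fell in Yy1-/-, at a median log2 fold change of 1.73, and 15 rose and 0 fell in Yy1-/- Smc3+/- (median 1.60). Of 20 genes that ran further, 10 rose and 1 fell in Yy1-/- (median 1.12), and 7 rose and 2 fell in Yy1-/- Smc3+/- (median 0.82). Of 22 with no match to the motif, 15 rose and 1 fell (1.28), and 14 rose and 0 fell (1.34). Some of these models are short and may end before the stem-loop. Hist1h2bl, Hist1h2bn and Hist2h2bb are annotated with 381 bases, and Hist1h3h and Hist1h3i with 411. The shares of all genes that rose and fell were 16.3% and 18.8% in Yy1-/- and 13.1% and 16.7% in Yy1-/- Smc3+/-. The difference between these groups was not tested. By shared sequence, of 7 genes with under 10% of their windows shared 3 rose in Yy1-/- and 1 fell, of 24 with 10 to 50% shared 16 rose and 1 fell, and of 33 with 50% or more shared 24 rose and 1 fell. Of 46 genes with at least 10 counts in every library 31 rose and 2 fell.

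**Figure D4:**
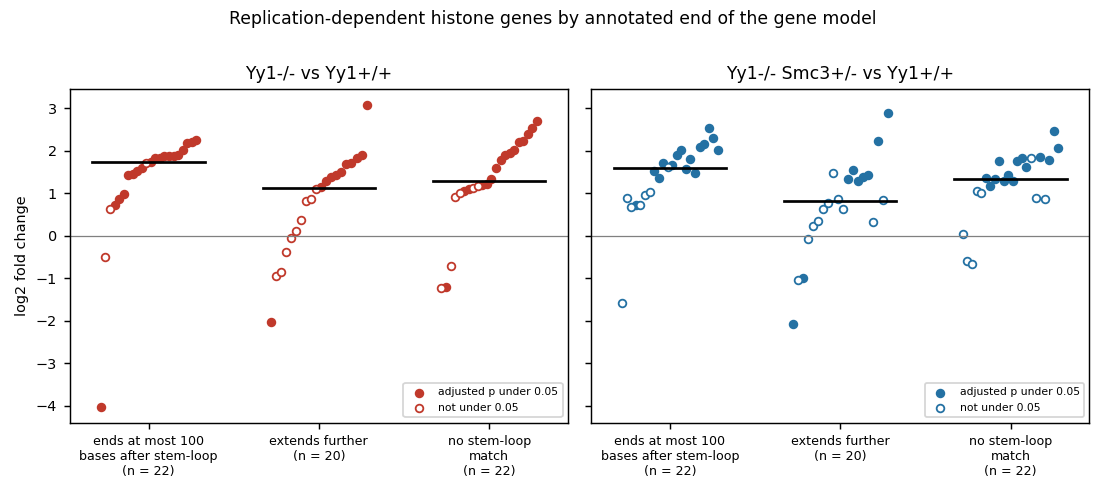
Log2 fold change (y axis) of the 64 replication-dependent genes, in Yy1-/- (left) and Yy1-/- Smc3+/- (right) against Yy1+/+. The groups are set by where the annotated transcript with the stem-loop motif ends, or by no match to the motif. Each point is a gene, filled where the edgeR adjusted p was under 0.05, and lines are medians, 1.73, 1.12 and 1.28 on the left.

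The variants of H2A moved apart from each other. H2afz encodes H2A.Z, which marks promoters and is exchanged into nucleosomes outside replication. It stood at 1020, 1680, 1140 and 1160 CPM in Yy1+/+, 3260, 2250, 3050 and 2640 CPM in Yy1-/- and 2920, 2450, 2350 and 2510 CPM in Yy1-/- Smc3+/-. The groups did not overlap, and H2afz rose by 1.16 ± 0.17 (edgeR adjusted p = 0.000313) and 1.03 ± 0.17 (edgeR adjusted p = 0.000754). H2afv, which encodes the other H2A.Z protein, stood at 163, 279, 198 and 219 CPM, 215, 202, 310 and 233 CPM, and 277, 218, 228 and 223 CPM. These ranges overlapped, and its log2 fold changes of 0.16 ± 0.18 and 0.14 ± 0.18 were not called.

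H2afx encodes H2A.X, the variant phosphorylated at DNA breaks, and was the only variant with the stem-loop motif. It stood at 265, 344, 379 and 336 CPM in Yy1+/+, 448, 491, 591 and 541 CPM in Yy1-/- and 685, 563, 533 and 464 CPM in Yy1-/- Smc3+/-. All mutant libraries were above Yy1+/+, and H2afx rose by 0.64 ± 0.15 (edgeR adjusted p = 0.00502) and 0.76 ± 0.15 (edgeR adjusted p = 0.00223). The first call was lost without the 3 residual-read libraries (0.47, edgeR adjusted p = 0.0857) and with log2 TPM (0.37, limma adjusted p = 0.115). H2afj, a variant close to canonical H2A, stood at 121, 173, 111 and 119 CPM in Yy1+/+, 255, 205, 242 and 223 CPM in Yy1-/- and 222, 178, 222 and 219 CPM in Yy1-/- Smc3+/-. Yy1+/+ replicate 2 came close to the lowest mutant library, and the groups did not overlap. H2afj rose by 0.82 ± 0.15 (edgeR adjusted p = 0.00119) and 0.68 ± 0.15 (edgeR adjusted p = 0.00432).

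The 2 macroH2A genes, whose proteins carry a large extra domain and are common on silent chromatin, moved differently. H2afy2 stood at 13.2, 17.5, 24.9 and 12.5 CPM in Yy1+/+, 0.0254, 1.51, 1.12 and 1.6 CPM in Yy1-/- and 0.441, 0.351, 0.414 and 0.224 CPM in Yy1-/- Smc3+/-. The highest mutant library, at 1.6 CPM, lay far below the lowest of Yy1+/+, at 12.5 CPM. H2afy2 fell, with log2 fold changes of -3.96 ± 0.43 (edgeR adjusted p = 3.18e-05) and -5.56 ± 0.52 (edgeR adjusted p = 1.18e-05), and -3.02 and -3.41 on the scale of log2 TPM, which compresses low values. H2afy stood at 1750, 2180, 1770 and 2080 CPM, 1750, 1620, 2400 and 2080 CPM, and 2280, 1960, 2080 and 2100 CPM. Its groups overlapped and its log2 fold changes, 0.01 ± 0.14 and 0.11 ± 0.14, were not called.

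H3.3, the replacement form of H3, is encoded by H3f3a and H3f3b, which make the same protein. H3f3a stood at 1210, 1100, 1060 and 1300 CPM in Yy1+/+, 1260, 976, 1030 and 964 CPM in Yy1-/- and 772, 782, 921 and 834 CPM in Yy1-/- Smc3+/-. The Yy1-/- Smc3+/- libraries were below all 8 others. H3f3a fell in Yy1-/- Smc3+/- (-0.50 ± 0.12, edgeR adjusted p = 0.00894), and its log2 fold change in Yy1-/- was -0.15 ± 0.12 (edgeR adjusted p = 0.383; -0.52 and called with log2 TPM, limma adjusted p = 0.00822). Between the mutants the log2 fold change of H3f3a was -0.35, with an interval of -0.62 to -0.09 and an edgeR adjusted p of 0.756. H3f3b stood at 1710, 7070, 1090 and 1630 CPM in Yy1+/+, 2130, 1800, 2170 and 1630 CPM in Yy1-/- and 2140, 1940, 1830 and 1910 CPM in Yy1-/- Smc3+/-. Yy1+/+ replicate 2 lay far above all 11 other libraries, and it was also the library with the highest sum of 8 immediate early genes, 15300 CPM, where the lowest Yy1+/+ library had 564 CPM; the part of either in the other was not tested. With that library the log2 fold changes of H3f3b were -0.57 ± 0.44 and -0.56 ± 0.44, and without it 0.39 and 0.40, none of them called.

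Of the linker variants, H1f0, common in cells that have stopped dividing, stood at 155, 193, 214 and 204 CPM in Yy1+/+, 198, 175, 164 and 94.7 CPM in Yy1-/- and 148, 191, 119 and 132 CPM in Yy1-/- Smc3+/-. Its ranges overlapped, with log2 fold changes of -0.28 ± 0.21 and -0.38 ± 0.21 that were not called (log2 TPM gave -0.59 in Yy1-/-, limma adjusted p = 0.0467). H1fx stood at 9.64, 11.7, 22.7 and 23.8 CPM in Yy1+/+, 1.6, 5.76, 4.42 and 5.73 CPM in Yy1-/- and 16.1, 13.4, 4.94 and 3.9 CPM in Yy1-/- Smc3+/-. Yy1-/- lay below Yy1+/+, while Yy1-/- Smc3+/- was split between the 2 ranges. H1fx fell in Yy1-/- (-1.93 ± 0.50, edgeR adjusted p = 0.00947), its log2 fold change in Yy1-/- Smc3+/- was -0.81 ± 0.47 (edgeR adjusted p = 0.218), and 2 annotated genes overlap it. The other 3 members with variant symbols, H3f3a-ps2, H3f3aos and H3f3c, were between 0.211 and 2.46 CPM and were not called.

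**Figure D5:**
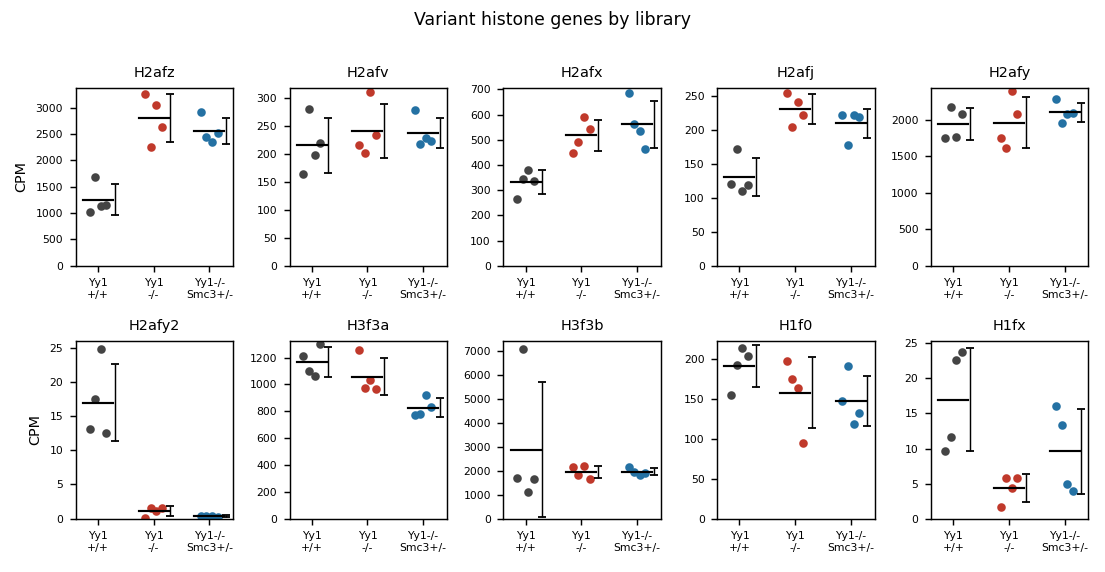
CPM (y axis, from 0) of 10 variant histone genes, 1 point per library, a line at the mean and a bar of 1 SD (n = 4) for each genotype. H2afz, H2afx and H2afj are higher in all mutant libraries, H2afy2 is near 0 in them, and H3f3b has 1 Yy1+/+ library at 7070.

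The genes that make and handle histones were taken from lists beside the members. Their counts stand beside the shares of all genes called, 16.3% higher and 18.8% lower in Yy1-/- and 13.1% and 16.7% in Yy1-/- Smc3+/-, against which a list with 1 or 2 called genes is not a result about that list. Of 22 genes tested of histone transcription and 3′ end processing, 9 rose and 0 fell in each comparison with Yy1+/+; the list's medians were 0.29 and 0.35 on the log2 scale. Those named by rule include Snrpd3 and Snrpg, Sm proteins of small nuclear ribonucleoproteins, which rose by 1.09 ± 0.15 and 0.92 ± 0.15 in Yy1-/- (edgeR adjusted p = 0.000198 and 0.000578) and by 0.93 and 0.76 in Yy1-/- Smc3+/-. Slbp, the stem-loop binding protein, ranged from 236 to 375 CPM in Yy1+/+, 257 to 389 CPM in Yy1-/- and 319 to 342 CPM in Yy1-/- Smc3+/-. Its ranges overlapped, and the log2 fold changes of 0.11 ± 0.15 and 0.16 ± 0.15 were not called. Npat, the coactivator of replication-dependent histone transcription, had log2 fold changes of 0.06 ± 0.21 and 0.17 ± 0.21 and was not called. The list also holds general RNA processing factors such as Sm proteins, so its counts are not those of histone-specific factors alone. Lsm11 ranged from 20.2 to 26.7 CPM in Yy1+/+, 10.8 to 21.2 CPM in Yy1-/- and 11.2 to 20.2 CPM in Yy1-/- Smc3+/-. Lsm10 ranged from 32.2 to 47.5, 31.6 to 37.8 and 29.6 to 41.1 CPM in the same order. Neither was among the genes that rose.

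Of 13 chaperones that place H3-H4 at replication 1 rose and 2 fell in Yy1-/- (median 0.03), and 3 rose and 0 fell in Yy1-/- Smc3+/- (median 0.14). Asf1b, which hands H3-H4 to the assembly factors, stood at 61.8 to 84.3 CPM in Yy1+/+, 120 to 158 CPM in Yy1-/- and 123 to 164 CPM in Yy1-/- Smc3+/-, with no overlap. It rose by 0.98 ± 0.14 in each (edgeR adjusted p = 0.000276 and 0.0003). Chaf1a, the large subunit of chromatin assembly factor 1, had log2 fold changes of 0.24 ± 0.16, not called, and 0.49 ± 0.16 (edgeR adjusted p = 0.0337). The latter call was lost in 9 of 17 alternatives, among them the removal of Yy1+/+ replicate 1, 2 or 4 or Yy1-/- Smc3+/- replicate 1 or 2 (0.39 to 0.49, edgeR adjusted p 0.076 to 0.103). Of 7 chaperones of H3.3, 1 rose and 1 fell in Yy1-/-, and 1 rose and 0 fell in Yy1-/- Smc3+/-. The gene that rose in Yy1-/- and in Yy1-/- Smc3+/- was Dek, a chromatin protein that binds H3.3 (0.58 ± 0.13 and 0.71 ± 0.13, edgeR adjusted p = 0.00456 and 0.00163), and in Yy1-/- its call was lost without the 3 residual-read libraries (0.39, edgeR adjusted p = 0.0875) and with log2 TPM. Hira (log2 fold changes of 0.34 and 0.21), Daxx (0.07 and 0.10) and Atrx (0.38 and 0.39) were not called in either.

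Of 18 chaperones and exchange factors of H2A-H2B and H2A.Z, 7 rose and 0 fell in Yy1-/- (median log2 fold change 0.27), and 6 rose and 0 fell in Yy1-/- Smc3+/- (0.27). Npm1, a histone chaperone of the nucleolus, rose by 0.91 ± 0.15 (edgeR adjusted p = 0.000543) and 0.65 ± 0.15 (edgeR adjusted p = 0.00493). Of 11 genes of linker DNA and centromere chromatin, 5 and 4 rose and 0 fell (medians 0.43 and 0.37). Cenpa, the H3 variant of centromeres, ranged from 79.8 to 90.5 CPM in Yy1+/+, 177 to 238 CPM in Yy1-/- and 168 to 201 CPM in Yy1-/- Smc3+/-, and rose by 1.26 ± 0.12 (edgeR adjusted p = 1.85e-05) and 1.09 ± 0.12 (edgeR adjusted p = 4.69e-05). Hmgb2, a DNA-bending protein, rose by 1.08 ± 0.15 and 1.02 ± 0.15 (edgeR adjusted p = 0.000196 and 0.00032). The list of S phase genes shares a gene, Mcm2, with that of the H3-H4 chaperones. Of its 32 genes 11 rose and 1 fell in Yy1-/- (median 0.17), and 9 rose and 0 fell in Yy1-/- Smc3+/- (median 0.31). Rrm1, a subunit of ribonucleotide reductase, rose by 0.57 ± 0.13 and 0.71 ± 0.13 (edgeR adjusted p = 0.00473 and 0.00152); in Yy1-/- this call was lost without the 3 residual-read libraries (0.43, edgeR adjusted p = 0.0865) and with log2 TPM (0.31, limma adjusted p = 0.169).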

How the data were processed

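RNA of LSK cells from 12 mouse libraries was measured by SMART-Seq v4 sequencing, per the labels' protocols. STAR 2.5.2b, RSEM 1.3.0 and the build mm10 are named, per the submitters' processing notes; their settings and the annotation release are not given in the sources used here. The deposited expected counts are RSEM estimates, in which reads that match several genes are divided, per the file headers. The deposited TPM values are corrected for length and depth. The deposited effective length, in another unit (bases), was used for 1 alternative.

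Expected counts were rounded and tested with edgeR 4.0.16 (R 4.3.3): filterByExpr with a minimum count of 10 and total of 15 (16649 genes, all 77 members among them), TMM scaling, 1 quasi-likelihood model over 12 libraries with a term per genotype, and Benjamini-Hochberg adjustment over all genes tested. Rose, fell and called mean an adjusted p under 0.05. CPM values are TMM-scaled. Levels between genes were compared by TPM, except where CPM is named. Alternatives were DESeq2 1.42.0, limma 3.58.1 on log2(TPM + 1), RLE factors, effective length offsets, no filter, at least 50 counts in 4 libraries, a fit of the 2 genotypes compared, leaving out each library or the 3 residual-read libraries, and, added after seeing the data, an older quasi-likelihood method of edgeR. The fits were tested on simulated data.

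The members, lists and tests were chosen with earlier results of these data known. Of the histone genes, every library's value is given for the protein-coding variants of at least 1 CPM, the replication-dependent genes among the 12 of highest mean CPM, and up to 8 more with the smallest p among those called in each comparison; Hist2h2aa2 and Hist2h2be were added after their values were seen. From the lists, Slbp, Npat, Hira, Daxx, Atrx, Chaf1a, Asf1b and up to 6 called genes with the smallest p are named. Lsm10 and Lsm11 were added after their values were seen. Of the cell type markers, Lyz2, Csf1r, Ly6c2 and Ccr2 are named after their values were seen. Zcchc6 and Zcchc11 matched no symbol. Positions are those of GENCODE M21 (GRCm38, also called mm10). Counting precision is that of 38671354 to 69086104 expected counts per library, which covers counting error only, since PCR copies carried no molecular identifiers.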

Additional observations from a re-analysis of the deposited data

Results flagged for a closer look

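The check covered 117 groups of 4 libraries. These were the groups of the histone genes given by library, and of the summed CPM of each class and of all replication-dependent genes. Of these groups 8 held a library far from the other 3 (Dixon's test at the 95% level), where chance gives about 1 in 20. Yy1+/+ replicate 2 was such a library for H3f3b, at 7070 CPM against 1090 to 1710 in the others, for Hist1h2bc, at 111 CPM against 28.3 to 33.6, and for H2afj, at 173 CPM against 111 to 121. In Yy1-/-, replicate 3 stood apart for Hist1h2bj, at 8.39 CPM against 5.42 to 5.49, and replicate 2 for Hist2h2aa2, at 1.67 CPM where the others were at 0. In Yy1-/- Smc3+/-, replicate 1 stood apart for H2afv, at 277 CPM against 218 to 228, replicate 2 for H2afj, at 178 CPM against 219 to 222, and replicate 3 for Hist3h2a, at 21.7 CPM against 33.3 to 34.8.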

How the results depend on the processing

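No paired analysis was possible because the labels carry no replicate numbers, and those used here only name the libraries. The numbers of histone genes that rose and fell stayed within 1.5 times of the main counts under most alternatives. For Yy1-/- against Yy1+/+, 20 rose without the residual-read libraries, 9 fell with log2 TPM and 8 fell without Yy1+/+ replicate 3. The first of these fits had only 2 Yy1-/- libraries left. The causes of these changes were not tested. Leaving out 1 library gave 34 to 43 that rose and 4 to 8 that fell in Yy1-/-, and 29 to 36 and 3 to 5 in Yy1-/- Smc3+/-. DESeq2 called 1 gene lower between the mutants, where edgeR called 0. Log2 TPM shifted the median of all genes to -0.18 in Yy1-/- and -0.11 in Yy1-/- Smc3+/-, and the replication-dependent medians were then 0.92 and 0.86; with log2 TPM 8.68% and 7.8% of all genes were called higher, in place of 16.3% and 13.1%.

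No called value of the genes named reversed its sign under the alternatives run. In Yy1-/- log2 TPM gave -0.05 for H2afv, -0.28 for H2afy, -0.022 for Chaf1a, -0.24 for Daxx, -0.17 for Npat and -0.15 for Slbp. In Yy1-/- Smc3+/- it gave -0.012 for H2afv, -0.07 for H2afy, -0.08 for Daxx and -0.016 for Npat. Without the residual-read libraries the Yy1-/- values were -0.08 for H2afv, -0.24 for H2afy, -0.05 for Npat and -0.13 for Slbp. H2afy was -0.024 with effective length offsets, -0.028 with no filter and -0.0004 with the stricter filter. Leaving out 1 library at a time gave, in Yy1-/-, -0.85 to 0.39 for H3f3b, -0.90 to 0.0056 for Hist1h2bc, -0.57 to 0.31 for Hist1h2ac, -0.13 to 0.09 for H2afy, -0.06 to 0.21 for Daxx, -0.06 to 0.26 for Npat, -0.038 to 0.24 for Slbp and -0.017 to 0.31 for H2afv. In Yy1-/- Smc3+/- it gave -0.83 to 0.40 for H3f3b, -1.18 to 0.047 for Hist1h2bc and -0.023 to 0.59 for Hist1h2ac. Genes with few counts limit the rest: 18 of the 77 members reached 10 counts in fewer than 4 Yy1+/+ libraries, and 4 in none.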
